A study of Mus musculus with 6 samples.

Results

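Long-chain fatty acids enter a cell, are joined to coenzyme A, cross the mitochondrial membranes as carnitine esters and are shortened there by repeated rounds of beta-oxidation, whose electrons pass to the respiratory chain. Brown fat, heart and oxidative skeletal muscle are known for high levels of the genes of this pathway, many of which are targets of the nuclear receptors PPAR-alpha and ERR-alpha and their coactivator PGC-1alpha. The 31 genes described here were listed by name for their place in this pathway, with earlier results of these data known. All 31 are among the 55453 genes of the deposited count table and among the 18192 that passed a filter on low counts. By role they comprise 4 genes of uptake, 6 of activation to acyl-CoA and its reversal, 4 of the carnitine shuttle, 4 acyl-CoA dehydrogenases, 3 genes of electron transfer, 5 of the later steps of each round, 3 auxiliary enzymes, 1 peroxisomal enzyme and Pdk4, a kinase that inhibits pyruvate dehydrogenase.

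The homozygous group had both copies of Srf floxed and carried a single copy of the Itga8-CreERT2 driver, and 2 of its libraries (replicates 2 and 3) have counts. The heterozygous control group had 1 floxed copy of Srf with the same driver, and 3 libraries. Srf encodes serum response factor, a transcription factor of contractile genes, and the driver is a Cre recombinase whose activity depends on tamoxifen. Both groups thus carried the driver and received 5 daily doses of 33 mg/kg tamoxifen, on normal chow, and their aortae were collected 10 days after the last dose. The control has itself lost a copy of Srf wherever the Cre recombinase acted. Per the labels each aorta, from the descending arch to the renal level, was stripped of adventitia and endothelium and frozen on its own, and libraries were made with a stranded mRNA kit. The labels also list a homozygous replicate 1, which was not analysed here, and the design text says that 1 homozygous sample was set aside as an outlier.

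Library totals were 27685188 and 31873243 counts in the homozygous group and 26177821 to 34311855 in the heterozygous group. Srf stood at 44.97 and 38.64 CPM (the count rescaled to a common library size, with TMM factors) in homozygous libraries, against 56.06, 64.41 and 68.27 CPM in heterozygous libraries (log2 fold change -0.59, SE 0.122). The 8 smooth muscle markers examined were all present, and together they summed to 14045 and 13640 CPM in homozygous aortae and to 23146 to 24297 CPM in heterozygous aortae. Heterozygous replicate 3 stood apart in skeletal muscle markers, which summed to 1119 and 3007 CPM in the homozygous libraries and to 768, 363 and 20.3 CPM in heterozygous replicates 1, 2 and 3. All values below are CPM unless another unit is named, log2 fold changes are homozygous over heterozygous, and SE is their standard error.

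Genes of fatty acid uptake and beta-oxidation stood higher in homozygous aortae at nearly every step of the pathway. The fold change was positive for 30 of the 31 genes, with a median of 0.73 on the log2 scale against -0.02 over all genes tested, and the groups did not overlap for 28 of the 31, each of them higher, while 17.4% of all genes tested were higher without overlap. Together the 31 genes took 0.670% and 0.666% of all counts in homozygous libraries and 0.364%, 0.475% and 0.323% in heterozygous replicates 1, 2 and 3. Mitochondrially encoded genes took 7.95% and 7.36% of counts in homozygous libraries and 3.95%, 4.38% and 5.71% in heterozygous replicates 1, 2 and 3, and with these genes left out the median of the 31 was 0.75. By edgeR's quasi-likelihood test, adjusted over all genes, 0 of the 31 passed 0.05, with adjusted p from 0.104 to 0.999, and 0% of all genes were called higher. At an unadjusted p under 0.05, 27 of the 31 were higher by edgeR, against 9.04% of all genes. DESeq2 gave an adjusted p for 30 of the 31 and called 24 higher and 0 lower, against 3.34% of all genes called higher. In bulk RNA, more cells of a type and more RNA per cell cannot be told apart.

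**Figure D1:**
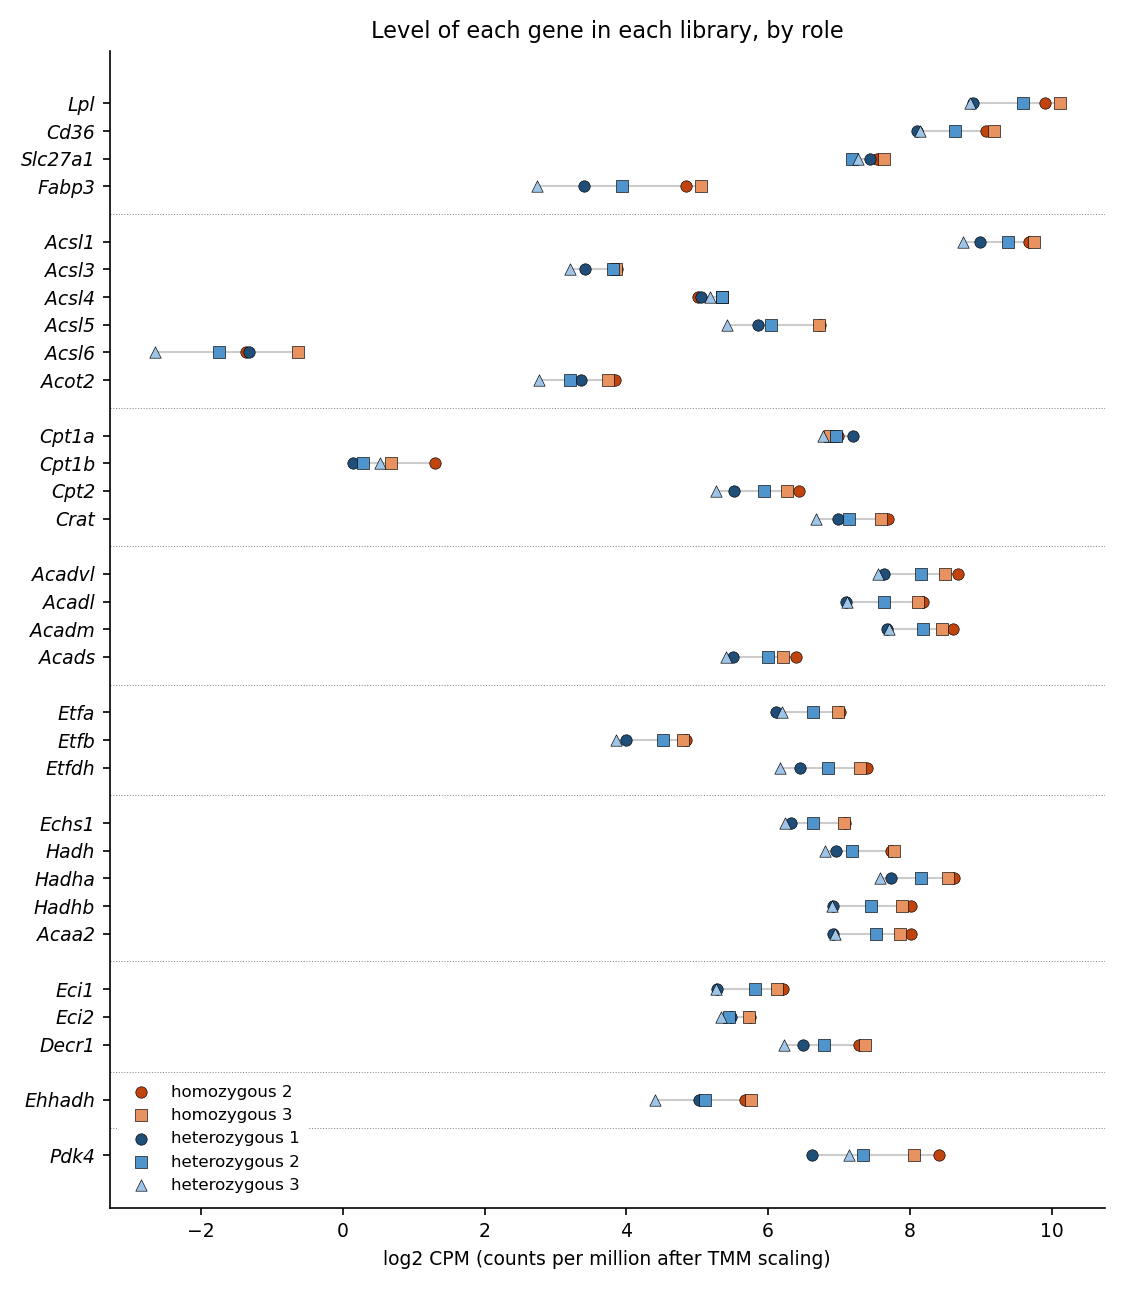
Level of each of the 31 genes in each library on a log2 CPM axis, with the genes grouped by role from uptake (top) to Pdk4 (bottom); circles and squares in orange tones are the 2 homozygous libraries and blue symbols the 3 heterozygous ones. Both homozygous libraries lie to the right of all heterozygous ones for 28 genes, and Acsl4, Acsl6 and Cpt1a are the exceptions.

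Genes that bring fatty acids into the cell stood higher in homozygous aortae, most of all Fabp3. Lpl encodes lipoprotein lipase, which frees fatty acids from circulating triglyceride, and stood at 959 and 1107 CPM in homozygous aortae, against 474, 773 and 463 CPM in heterozygous replicates 1, 2 and 3. Its log2 fold change was 0.86 (SE 0.230), and DESeq2 gave an adjusted p of 0.00986. Cd36, a fatty acid translocase of the plasma membrane, had 539 and 581 CPM in homozygous and 276, 398 and 284 CPM in heterozygous aortae. In both genes the groups were apart, and heterozygous replicate 2 was the highest control. Fabp3, the fatty acid-binding protein of heart and muscle, showed the highest fold change of the 31 genes. It had 28.6 and 33.3 CPM in homozygous aortae, against 10.5, 15.3 and 6.68 CPM in heterozygous aortae, a log2 fold change of 1.50 (SE 0.293; DESeq2 adjusted p = 0.000161). Of the 100-base words of its transcripts 21.7% also occur in other genes, mostly the pseudogene Fabp3-ps1, which had a count of 1 or 0 in every library. Slc27a1, a fatty acid transport protein with acyl-CoA synthetase activity, differed less, at 187 and 200 CPM in homozygous and 173, 146 and 154 CPM in heterozygous aortae, and neither tool called it.

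Among the genes of activation, the long-chain acyl-CoA synthetases Acsl1 and Acsl5 stood higher and Acsl4 did not. Acsl1 had 818 and 860 CPM in homozygous aortae and 508, 672 and 429 CPM in heterozygous aortae, a log2 fold change of 0.65 (SE 0.183). Acsl5 had 106 and 105 CPM in homozygous libraries, against 58.2, 65.7 and 42.6 CPM in heterozygous libraries, and its fold change of 0.93 (SE 0.171) was called by DESeq2 (adjusted p = 0.000257). Both homozygous libraries lay above all heterozygous ones. Acsl4, which prefers arachidonic acid, stood at 32.4 and 40.9 CPM in homozygous and at 33.1, 40.6 and 36.2 CPM in heterozygous aortae, so that the groups overlapped (0.00055, SE 0.137). Acsl3, a synthetase of the endoplasmic reticulum and lipid droplets, had 14.7 and 14.5 CPM in homozygous and 10.7, 13.996 and 9.19 CPM in heterozygous libraries, and was not called. Acsl6, best known from brain, was near the limit of detection, with 59 counts over the 5 libraries. Acot2, a mitochondrial thioesterase that reverses activation, had 14.4 and 13.4 CPM in homozygous and 10.2, 9.25 and 6.80 CPM in heterozygous aortae (0.66, SE 0.181). It shares 17.1% of its transcripts' 100-base words with transcripts of other genes, mostly its paralog Acot1, so its value is uncertain.

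In the carnitine shuttle Cpt2 and Crat stood higher in homozygous aortae, while the groups overlapped for Cpt1a. Cpt1a, the liver-type carnitine palmitoyltransferase of the outer membrane, where acyl groups are committed to the mitochondrion, stood at 127 and 117 CPM in homozygous aortae, against 147, 124 and 109 CPM in heterozygous aortae. Its log2 fold change was -0.05 (SE 0.136), the lowest of the 31 genes, and the groups overlapped. Cpt2, its partner on the inner membrane, had 86.2 and 77.1 CPM in homozygous and 45.8, 61.8 and 38.5 CPM in heterozygous aortae (0.74, SE 0.189). Crat, which makes carnitine esters of short acyl groups, had 207 and 192 CPM in homozygous and 127, 141 and 103 CPM in heterozygous aortae (0.69, SE 0.141). DESeq2 called both, with adjusted p of 0.0136 and 0.00149.

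Cpt1b, the muscle-type partner of Cpt1a and the main form in muscle and brown fat, could be read only in part. In GENCODE release 21 its exons lie within GRCm38 chromosome 15, 89416405 to 89425863, minus strand, and 81.4% of their length is also exon of Gm44502, a transcript that runs from Chkb through Cpt1b on the same strand. The deposited table gives Gm44502 a count of 0 in all 5 libraries, and Cpt1b had 70 and 52 counts in homozygous libraries, against 36, 41 and 36 counts in heterozygous libraries. No source used here gives how reads shared by both genes were counted, so the size of a ratio of Cpt1b to Cpt1a cannot be read as their relative level, and the ratio is given only to set the libraries side by side. In counts within a library it was -5.68 and -6.20 on the log2 scale in homozygous libraries and -7.05, -6.67 and -6.25 in heterozygous libraries. The group means differed by 0.72, and an exact two-sided permutation test gave p = 0.2, the smallest that 2 against 3 libraries allow. The ratio of Cpt2 to Cpt1a, 1 of 3 further ratios chosen after the values were seen, was -0.56 and -0.60 in homozygous and -1.677, -1.004 and -1.504 in heterozygous libraries, and the exact p was again 0.2 (0.2 after adjustment over the 4 ratios). The other ratios, of Acsl1 and of Acsl5 to Acsl4, were higher in both homozygous libraries than in any heterozygous one, by 0.68 and 0.96 between group means, with the same exact p of 0.2.

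The 4 acyl-CoA dehydrogenases, which take the first step of each round on chains of falling length, stood higher by similar amounts. Acadvl, for very long chains, had 412 and 360 CPM in homozygous aortae and 199, 285 and 188 CPM in heterozygous aortae. Acadl, for long chains, had 292 and 277 CPM in homozygous libraries, against 137, 199 and 139 CPM in heterozygous libraries, and the highest fold change of the 4 (0.84, SE 0.171; DESeq2 adjusted p = 0.00086). Acadm, for medium chains, stood at 391 and 351 CPM in homozygous and at 205, 291 and 209 CPM in heterozygous aortae. For Acads, the short-chain enzyme, homozygous aortae gave 83.7 and 74.3 CPM and heterozygous aortae 45.3, 64.0 and 42.6 CPM. All 4 showed the same arrangement of libraries, with both homozygous libraries highest, heterozygous replicate 2 next and heterozygous replicates 1 and 3 close together below it. In GENCODE 42.9% of the exon length of Acadvl lies opposite exons of Dvl2, and no source used here gives the strand setting of the counting. Dvl2 itself had 597 and 641 counts in homozygous and 775, 775 and 593 counts in heterozygous libraries.

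The electron transfer flavoprotein, which takes electrons from these dehydrogenases, and its oxidoreductase stood higher too. Etfa, the alpha subunit, had 129 and 127 CPM in homozygous and 69.0, 99.3 and 73.2 CPM in heterozygous aortae (0.67, SE 0.160). Etfb, the beta subunit, had 28.7 and 28.0 CPM in homozygous and 16.0, 22.9 and 14.5 CPM in heterozygous aortae. For Etfdh, which passes the electrons to ubiquinone, homozygous libraries gave 168 and 157 CPM and heterozygous libraries 87.8, 115 and 71.7 CPM (0.83, SE 0.185). The groups were apart for all 3 genes, and DESeq2 called each, though Etfb only just (adjusted p = 0.0457). Of the exon length of Etfb in GENCODE, 58.2% is also exon of Gm45233 or Mir7051 on the same strand. The deposited counts hold no gene named Gm45233, and no source used here says whether it was counted under another name. The level of Etfb is therefore uncertain.

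The genes of the later steps, hydration, the second oxidation and thiolysis, were all called by DESeq2. Hadh, the hydroxyacyl-CoA dehydrogenase for shorter chains, had the smallest edgeR adjusted p of the 31 genes (0.104), with 213 and 219 CPM in homozygous aortae, against 124, 145 and 112 CPM in heterozygous aortae (0.77, SE 0.124). Its DESeq2 adjusted p was 3.4e-05. Echs1, the short-chain enoyl-CoA hydratase, had 136 and 135 CPM in homozygous and 80.3, 99.0 and 75.5 CPM in heterozygous aortae (0.67, SE 0.129). Acaa2, the mitochondrial thiolase, stood at 260 and 233 CPM in homozygous and at 120, 183 and 123 CPM in heterozygous aortae (0.79, SE 0.190). Hadha and Hadhb, the alpha and beta subunits of the trifunctional protein that carries out these steps on long chains, had 393 and 370 CPM (Hadha) and 259 and 238 CPM (Hadhb) in homozygous aortae. In heterozygous replicates 1, 2 and 3 they stood at 214, 284 and 191 CPM (Hadha) and at 121, 175 and 120 CPM (Hadhb). Their log2 fold changes, 0.73 (SE 0.168) and 0.84 (SE 0.176), lay within 1 SE of each other. Of the words of Hadhb 14.8% also occur in other genes, mostly Gm13910, which had 46 and 50 counts in homozygous and 33, 44 and 21 counts in heterozygous libraries.

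Hadha and Hadhb lie head to head on mouse chromosome 5, with 273 bases between the first transcribed bases that RefSeq gives for them, on opposite strands. RefSeq promoter windows on GRCm38.p6, 250 bases before to 50 after a gene's start, were at hand for 26 of the 31 genes, in 31 windows, and the windows of Hadha and Hadhb share 228 bases. They were searched on both strands for the letters AGGTCA, the half-site that PPAR, ERR and other nuclear receptors bind. The half-site was found for 6 of the 26 genes (23.1%; Acadm, Acadvl, Acsl6, Cd36, Cpt1a and Echs1), against 18.1% of the 27025 genes with a window. The longer letters TCAAGGTCA, which contain the half-site and form the element of the estrogen-related receptors, were found for 1 of the 26 genes (Acsl6, 3.85%), against 0.466% of all genes. Neither 2 half-sites in a row with 1 base between (0.0481% of all genes) nor the CArG box, the element that serum response factor binds (1.81% of all genes), was found in a window of the 26 genes. A match is a description of the letters in these windows and says nothing of binding, and none says only that these letters are not in this window. The windows printed are for the gene pair whose windows overlap (Hadhb, chr5:30155003-30155302, plus strand), for dehydrogenases that stood higher and hold a half-site (Acadm, chr3:153944594-153944893, and Acadvl, chr11:70015379-70015678, both minus strand), and for Cpt1a (chr19:3323051-3323350, plus strand), which holds one and whose groups overlapped. Each is written 5′ to 3′ along the gene, and capitals mark the half-site on either strand, which begins 249 bases before the start in Acadm, 87 before it in Acadvl and 94 before it in Cpt1a.
Hadhb: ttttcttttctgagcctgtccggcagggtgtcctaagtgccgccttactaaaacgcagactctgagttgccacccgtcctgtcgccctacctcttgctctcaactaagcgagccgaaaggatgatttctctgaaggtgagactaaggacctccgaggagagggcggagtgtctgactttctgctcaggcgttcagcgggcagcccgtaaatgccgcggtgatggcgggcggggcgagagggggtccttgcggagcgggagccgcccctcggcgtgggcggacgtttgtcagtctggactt
Acadm: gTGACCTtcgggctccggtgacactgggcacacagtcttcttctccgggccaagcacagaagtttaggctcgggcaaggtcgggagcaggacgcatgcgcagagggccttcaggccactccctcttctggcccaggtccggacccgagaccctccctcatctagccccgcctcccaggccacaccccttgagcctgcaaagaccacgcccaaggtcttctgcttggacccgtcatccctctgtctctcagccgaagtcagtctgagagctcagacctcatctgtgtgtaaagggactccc
Acadvl: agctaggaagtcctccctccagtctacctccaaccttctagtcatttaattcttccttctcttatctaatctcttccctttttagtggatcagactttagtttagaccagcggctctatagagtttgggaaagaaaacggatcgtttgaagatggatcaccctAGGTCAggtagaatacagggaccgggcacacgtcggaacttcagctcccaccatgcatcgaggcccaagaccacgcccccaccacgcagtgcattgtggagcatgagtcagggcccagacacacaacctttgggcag
Cpt1a: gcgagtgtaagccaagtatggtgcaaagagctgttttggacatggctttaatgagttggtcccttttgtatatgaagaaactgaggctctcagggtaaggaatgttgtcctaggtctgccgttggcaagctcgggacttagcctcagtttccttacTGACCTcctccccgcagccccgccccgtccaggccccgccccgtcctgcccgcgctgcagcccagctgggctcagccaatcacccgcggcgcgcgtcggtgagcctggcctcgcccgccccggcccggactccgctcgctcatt

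Auxiliary enzymes that let unsaturated chains enter the cycle were also higher, by unequal amounts. Decr1, the mitochondrial 2,4-dienoyl-CoA reductase, had 155 and 165 CPM in homozygous and 90.1, 111 and 74.8 CPM in heterozygous aortae (0.80, SE 0.159; DESeq2 adjusted p = 0.000932). Eci1, the mitochondrial enoyl-CoA isomerase, stood at 74.4 and 69.8 CPM in homozygous and at 38.7, 56.3 and 38.3 CPM in heterozygous libraries (0.70, SE 0.175). Eci2, an isomerase found in both peroxisomes and mitochondria, differed less but with little spread, at 53.6 and 53.2 CPM in homozygous and 44.6, 43.6 and 40.5 CPM in heterozygous aortae (0.32, SE 0.087), and DESeq2 did not call it (adjusted p = 0.0763). Ehhadh, the peroxisomal bifunctional enzyme, had 50.9 and 54.4 CPM in homozygous and 32.5, 34.4 and 21.2 CPM in heterozygous aortae (0.84, SE 0.195). Pdk4 inhibits pyruvate dehydrogenase and so limits glucose oxidation when fatty acids are in supply. It stood at 341 and 267 CPM in homozygous aortae, against 98.6, 162 and 142 CPM in heterozygous aortae, the second highest fold change of the 31 genes (1.18, SE 0.211; DESeq2 adjusted p = 3.3e-05).

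**Figure D2:**
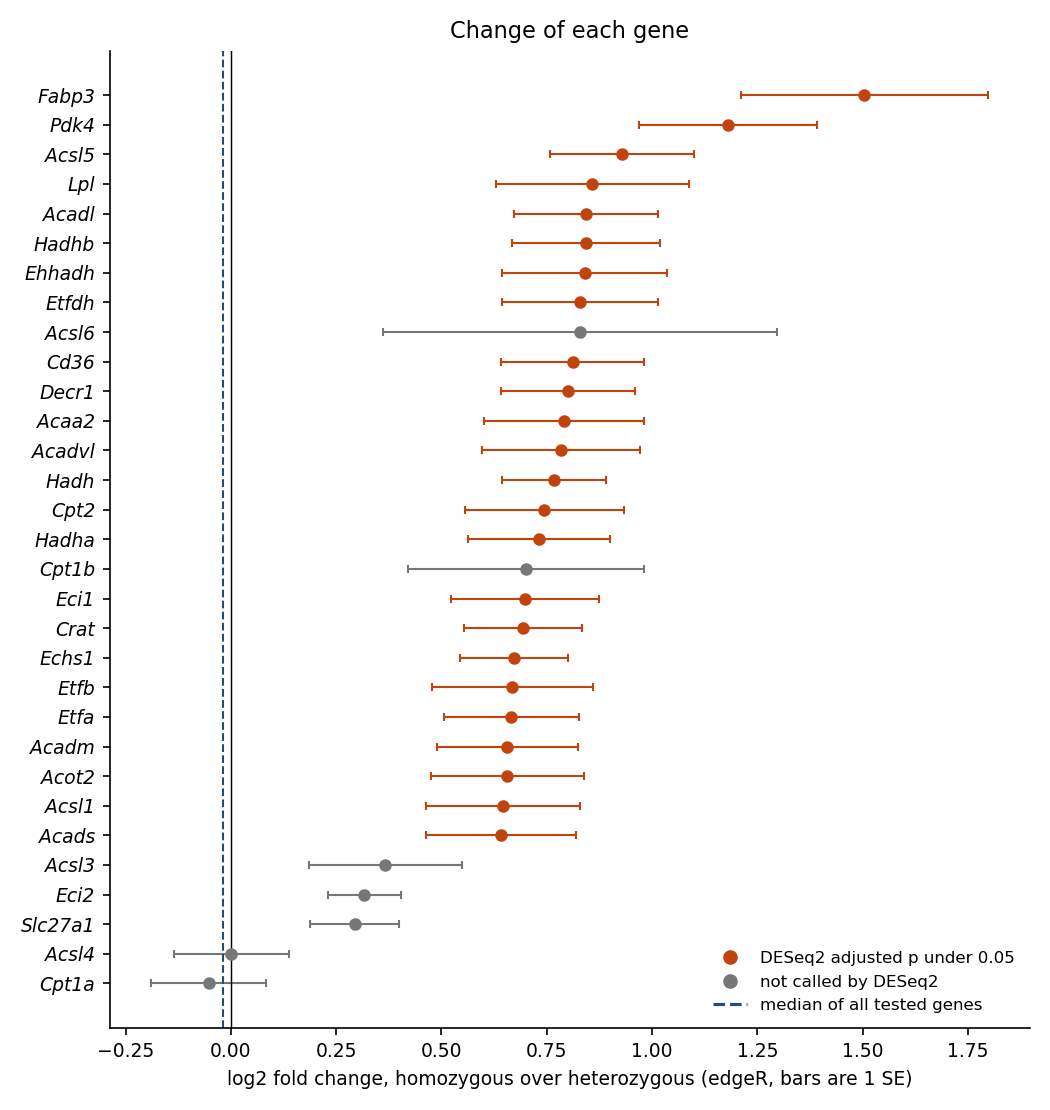
log2 fold change of each of the 31 genes, homozygous over heterozygous, from edgeR with bars of 1 SE, in order of size; orange marks genes with a DESeq2 adjusted p under 0.05 and the dashed line is the median of all genes tested (-0.02). Most genes lie between 0.64 and 0.93, Fabp3 (1.50) and Pdk4 (1.18) lie above them, and Acsl3, Eci2, Slc27a1, Acsl4 and Cpt1a lie below.

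Per kilobase of annotated exon, the 31 genes differed widely in level. Acaa2 averaged 162 CPM per kilobase in homozygous and 93.9 in heterozygous aortae, Cd36 156 and 88.9, Acadvl 144 and 83.4, and Acadl 142 and 79.0. Cpt1a stood much lower, at 16.0 CPM per kilobase in homozygous and 16.6 in heterozygous aortae, and Cpt2 at 34.2 and 20.4. Exons of all annotated transcripts were joined for the length, which lowers the value of genes with long forms that are rare. The joined length was 8286 bases for Echs1, and how much each form was used was not measured.

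The 3 heterozygous libraries were not alike in these genes, and replicate 2 was also the highest control for most fat, all endothelial and all erythrocyte markers. Heterozygous replicate 2 was the highest control for 25 of the 31 genes, while it was the highest control for 31.4% of all genes tested. Heterozygous replicate 3 was the lowest control for 22 of the 31, against 39.4% of all genes. The mean over the 31 genes, on the scale of log2(CPM + 0.5), was 6.68 and 6.65 in homozygous replicates 2 and 3 and 5.92, 6.24 and 5.77 in heterozygous replicates 1, 2 and 3. The mean of the 9 brown adipocyte markers that passed the filter was 6.43 and 6.41 in the homozygous libraries and 5.26, 5.89 and 4.82 in the heterozygous ones, with replicate 2 the highest control for 9 of 9. Adipocyte markers averaged 7.16 and 7.31 in homozygous and 6.40, 6.93 and 6.50 in heterozygous libraries, with replicate 2 the highest control for 11 of 12.

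These marker levels were not low. All 10 brown adipocyte markers together summed to 1291 and 1266 CPM in homozygous libraries and to 524 to 977 CPM in heterozygous libraries. Of the 9 that passed the filter, 8 were positive and Prdm16 was negative. Prdm16 had 150 and 187 CPM in homozygous and 232, 245 and 235 CPM in heterozygous libraries (-0.50, SE 0.119; DESeq2 adjusted p = 0.00805). Zic1, with 5 counts in all, was at 0 in homozygous replicate 2 and in heterozygous replicates 1 and 3. Ucp1, the most abundant, had 582 and 569 CPM in homozygous and 152, 337 and 87.5 CPM in heterozygous aortae. The 12 adipocyte markers summed to 3817 and 3747 CPM in homozygous and to 2373 to 3049 CPM in heterozygous libraries, and none was at 0. Their 11 positive members did not include the most abundant one, Plin4, a lipid droplet protein also found in other cells, which had 924 and 746 CPM in homozygous and 910, 836 and 1279 CPM in heterozygous libraries. Without overlap, 8 of the 9 tested brown adipocyte markers were higher and 1 lower, against 17.4% and 18.2% of all genes tested. DESeq2 called 4 of the 9 higher, against 3.34% of all genes, and 1 lower. Of the 12 adipocyte markers, 8 were higher without overlap and 6 were called higher by DESeq2, against the same 17.4% and 3.34%. Skeletal muscle markers had a positive fold change for 14 of 14 members. For 12 the groups did not overlap, each higher, against 17.4% of all genes tested. The unadjusted edgeR p was under 0.05 for 8, against 9.04% of all genes higher. DESeq2 called 1 higher, against 3.34% of all genes. Myh1, a fast myosin, was the most abundant at 296 and 496 CPM in homozygous and 119, 64.5 and 0.318 CPM in heterozygous libraries. Myh4 and Pvalb were at 0 in heterozygous replicate 3. The part of RNA from fat, skeletal muscle or other cell types in the higher level of the 31 genes was not tested.

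**Figure D3:**
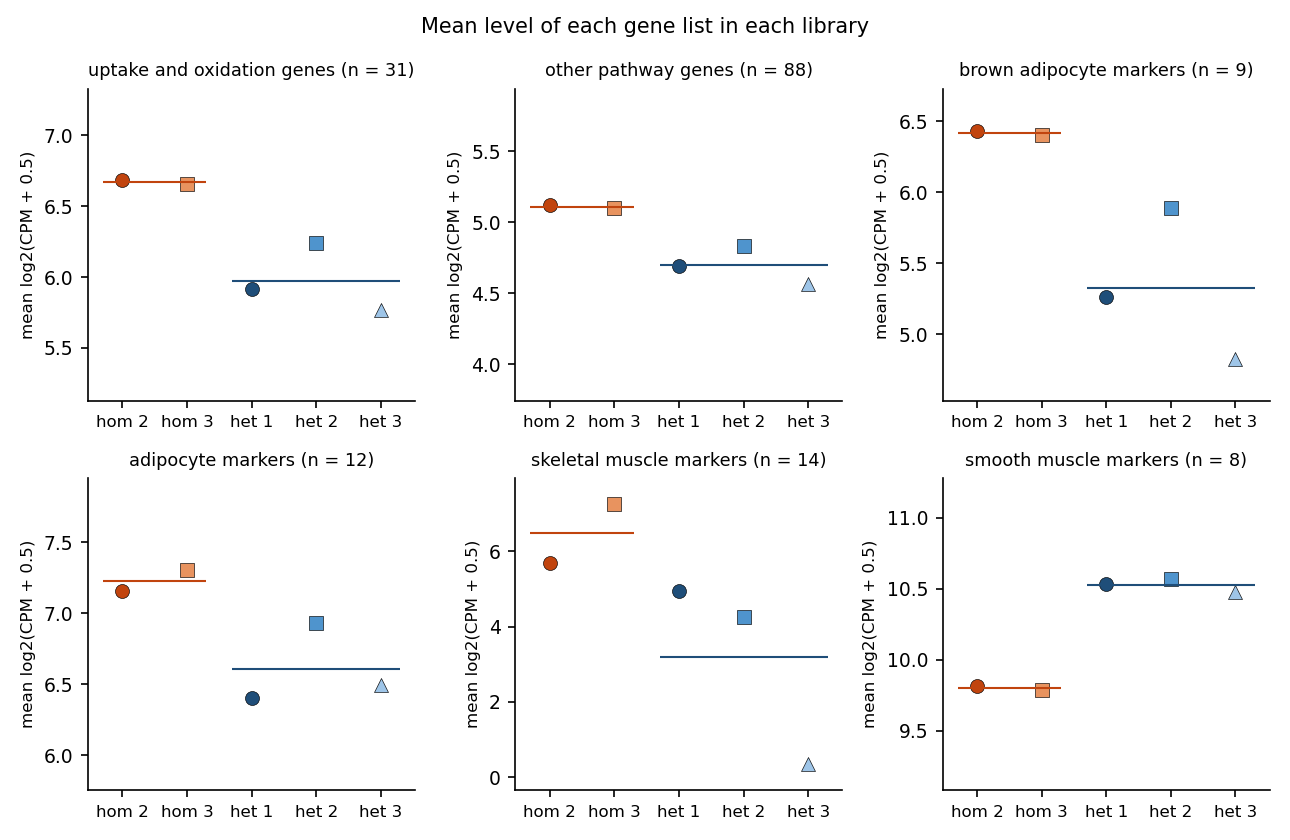
Mean log2(CPM + 0.5) over the tested genes of 6 lists in each library, with the homozygous libraries (orange, hom) left and the heterozygous libraries (blue, het) right; lines are group means, and the vertical ranges differ between panels. Heterozygous replicate 2 is the highest control and replicate 3 the lowest in the panels of uptake and oxidation genes and other pathway genes. The same holds for brown adipocyte markers and, by small steps, for smooth muscle markers (10.53, 10.57 and 10.48 in heterozygous replicates 1, 2 and 3). Smooth muscle markers are lower in both homozygous libraries.

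Among the other marker lists, the endothelial and smooth muscle ones shared the order of the controls. Smooth muscle markers summed to 23786, 24297 and 23146 CPM in heterozygous replicates 1, 2 and 3. The 10 endothelial markers summed to 1296 and 526 CPM in homozygous replicates 2 and 3 and to 879, 1127 and 856 CPM in heterozygous replicates 1, 2 and 3, with replicate 2 the highest control for 10 of 10 and replicate 3 the lowest for 7 of 10. The homozygous libraries did not both stand above the controls in this sum, and the list was led by Vwf at 463 and 96.0 CPM in homozygous and 303 to 380 CPM in heterozygous libraries. The 10 macrophage markers, led by Lyz2 at 125 and 166 CPM in homozygous and 75.0 to 95.1 CPM in heterozygous libraries, summed to 475 and 622 CPM in homozygous and to 293 to 412 CPM in heterozygous libraries, and heterozygous replicate 2 was the highest control for 0 of 10. Of these 10, 8 were higher without overlap, against 17.4% of all genes tested, and DESeq2 called 5 higher, against 3.34%. Adventitial fibroblast markers, led by Pi16 at 305 and 269 CPM in homozygous and 278 to 286 CPM in heterozygous libraries, summed to 1266 and 1325 CPM in homozygous and to 1030 to 1274 CPM in heterozygous libraries, with replicate 2 the highest control for 2 of 8. Cardiomyocyte markers summed to 453 and 449 CPM in homozygous and to 364 to 545 CPM in heterozygous libraries, mostly Ryr2, which smooth muscle also expresses, while Nppb was at 0 in all 5 libraries and Myl2 at 0 in heterozygous replicate 3. The 5 erythrocyte markers, led by Hbb-bs, summed to 23.9 and 28.9 CPM in homozygous libraries and to 37.9, 297 and 87.6 CPM in heterozygous replicates 1, 2 and 3, with replicate 2 the highest control for 5 of 5. Replicate 2 was the highest control for 0 of 8 tested cardiomyocyte markers, 1 of 14 skeletal muscle markers and 4 of 8 smooth muscle markers.

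Other genes of the pathway, 91 in 5 further lists, also stood higher in most cases. Of the 88 that passed the filter (all but Fabp1, Fabp2 and Fabp7), 76 had a positive fold change, with a median of 0.48. Over all 18192 genes tested, 8587 had a positive fold change. At an adjusted p under 0.05, edgeR called 0 of the 88. DESeq2 gave no adjusted p for 4 of them and called 33 higher and 0 lower, against 3.34% of all genes called higher. By edgeR, 53 were higher and 1 lower at an unadjusted p under 0.05 (background 9.04% higher and 6.75% lower). Without overlap, 61 were higher and 5 lower (background 17.4% and 18.2%). In the list of other uptake, binding and lipolytic genes, DESeq2 gave no adjusted p for 2 of 16. It called 6 of the 16 higher, against the same 3.34% of all genes. Fabp5, an epidermal-type fatty acid-binding protein, had 20.4 and 23.1 CPM in homozygous and 12.1, 11.8 and 8.99 CPM in heterozygous aortae (0.98, SE 0.152). Lipe, hormone-sensitive lipase, gave 0.69 (SE 0.118), Gpihbp1, which holds lipoprotein lipase at the capillary wall, 0.75 (SE 0.160) and Dbi, the acyl-CoA-binding protein, 0.82 (SE 0.182).

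Among other genes of activation and carnitine supply, DESeq2 called 3 of 15 higher, against 3.34% of all genes. They were Acsf2, an acyl-CoA synthetase (0.82, SE 0.120), Slc25a20, the carrier that exchanges acylcarnitine for carnitine across the inner membrane (0.85, SE 0.185), and Acacb, which makes the malonyl-CoA that inhibits the enzyme of Cpt1a (0.84, SE 0.172). Acacb had 615 and 580 CPM in homozygous aortae, against 313, 415 and 276 CPM in heterozygous aortae. Acsf3, a malonyl-CoA synthetase, gave 0.57 (SE 0.157) and was not called. In the list of other mitochondrial acyl-CoA oxidation genes all 17 were positive, and DESeq2 called 10 higher, against 3.34% of all genes. Pcca and Pccb, the subunits of propionyl-CoA carboxylase, gave 0.58 (SE 0.0972) and 0.58 (SE 0.136), Etfrf1, a regulator of the electron transfer flavoprotein, 0.59 (SE 0.107), and Hibch, of valine breakdown, 0.72 (SE 0.156).

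Peroxisomal genes had a median of 0.40. DESeq2 gave no adjusted p for 1 of the 18, Acox2, and called 5 higher, against 3.34% of all genes. Phyh, which starts the breakdown of phytanic acid, gave 0.73 (SE 0.140), and Pex11a, a peroxisome division factor, 0.56 (SE 0.120). Acox2 was scarce, at 0.601 and 0.676 CPM in homozygous and 0.119 to 0.178 CPM in heterozygous libraries. Of 22 regulators, 17 were positive. DESeq2 gave no adjusted p for 1 of the 22 and called 9 higher, against 3.34% of all genes. Esrrg and Esrra, estrogen-related receptors, gave 1.03 (SE 0.174) and 0.39 (SE 0.0935), Sirt3, a mitochondrial deacetylase, 0.42 (SE 0.0974), and Pdk2, another pyruvate dehydrogenase kinase, 0.54 (SE 0.127). Pdk3, named after its value was seen, was the single one of the 88 lower at an unadjusted p under 0.05 (-0.47, SE 0.133). Ppara, the gene of PPAR-alpha and likewise named after its value was seen, had 56.1 and 32.9 CPM in homozygous and 17.8, 27.4 and 21.7 CPM in heterozygous libraries (1.00, SE 0.253).

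The median kept its direction under every setting tried, while the number called did not. The median of the 31 genes ranged from 0.62 without heterozygous replicate 3 to 1.01 with a term for the number that each library's description carries. edgeR called 18 of the 31 higher without heterozygous replicate 2, the control highest in most of these genes, where it called 0.779% of all genes higher. With no filter on low counts it called 24 of the 31 and 3.23% of all genes higher. With all libraries and the filter it called 0 of the 31, as it did without any other single library.

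**Figure D4:**
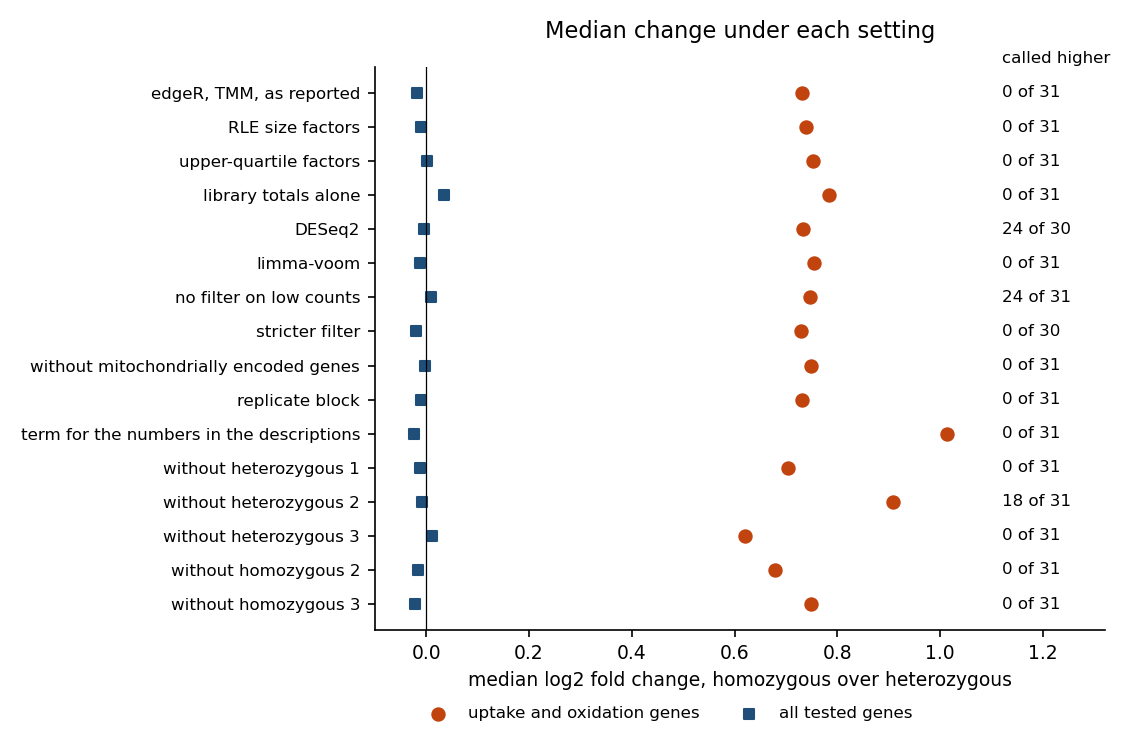
Median log2 fold change, homozygous over heterozygous, of the uptake and oxidation genes (orange circles) and of all genes tested (blue squares) under each setting, with the number of these genes called higher at an adjusted p under 0.05 of those with an adjusted p at the right. The medians of the uptake and oxidation genes lie between 0.62 and 1.01, and 24, 24 and 18 genes are called under DESeq2, with no filter and without heterozygous replicate 2.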

How the data were processed

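The authors deposited raw whole-number counts per gene for 5 libraries. The submitters' processing notes name GRCm38 and, with no role or order, the tools featureCounts, Subread (1.6.4), STAR (2.7.0f) and fastp (0.20.0). No source used here gives the annotation release, the strand setting or how reads shared by genes were handled. Of the 55453 genes, 18192 passed edgeR's filterByExpr. They were scaled by TMM and fitted on group alone with edgeR (4.0.16, under R 4.3.3), using its quasi-likelihood test with Benjamini-Hochberg adjustment over all of them and a threshold of 0.05. The SE is the size of the log2 fold change divided by the square root of F. Alternatives were DESeq2 1.42.0, limma-voom (limma 3.58.1), other scalings and filters, a replicate block, a term for the description numbers and each library left out. The fits were tested on simulated data. No pair of libraries was alike within sampling noise, and the p-values reflect only how these 5 separately frozen aortae vary. Gene positions, exon lengths and shared words came from GENCODE mouse release 21, which holds 54586 of the symbols and each of the 31 genes once, and promoters from RefSeq (GRCm38.p6).

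The members and lists were chosen with earlier results of these data known. By rule, values per library are given for the 2 most abundant genes of each role, for those past the threshold in edgeR or DESeq2 and for those against the median, and the rule names up to 4 genes with the smallest edgeR p of each other pathway list and the most abundant gene of each marker list. One gene that the rule names is not reported here. Slc27a1, Acsl3, Acsl4, Acsl6, Cpt1b, Eci2, Ppara and Pdk3, the markers at 0 and Prdm16 are named outside that rule, after their values were seen.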

Additional observations from a re-analysis of the deposited data

How the results depend on the processing

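The median of the 31 genes stayed positive under all 15 settings, at 1.01 with a term for the number that each library's description carries, which leaves homozygous replicate 2 against heterozygous replicate 3 to set the contrast. DESeq2 called 24 of the 30 genes with an adjusted p higher, edgeR with no filter on low counts also 24, and the fits without 1 library 0 to 18; none called a gene of the 31 lower. Over all genes, those higher and lower numbered 524 and 411 by DESeq2, 982 and 432 with no filter, 3 and 2 with the replicate block, 8 and 1 with the term for the numbers, 0 to 139 and 0 to 9 without 1 library, and 0 and 1 by limma-voom, against 0 and 0. The cause of these differences was not tested. Libraries with the same replicate number are known here to share only that number. Their deviations from the group means had correlations of -0.03 and -0.24 over genes. With 2 homozygous libraries these deviations mirror each other, so the correlations cannot decide whether the libraries were paired. The replicate block gave a median of 0.73 and changed no call among the 31.

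Directions turned for Acsl4 (-0.0025 by limma-voom, -0.074 with the block, -0.16 with the term for the numbers, -0.18 to 0.16 without 1 library) and Cpt1a (0.069, 0.22 and -0.13 to 0.068 with the block, the term and 1 library left out), both not called under any setting. The Cpt1b to Cpt1a count ratio, whose size is not their relative level, differed by 0.46 to 0.98 without 1 library. With 2 homozygous libraries, an exact test over libraries cannot pass 0.05, and when 1 is left out the other is assumed to vary like the rest.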
